A study of Mus musculus with 32 samples.

Results

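The sites described here are 2068 distal Bcl11b peaks of the pro-T-like line Scid.adh.2c2 that lay under a GATA3 peak of the same line and under no Bcl11b peak of the ILC2/b6 line. They were chosen from the authors' peak lists by 3 conditions. The annotation of the Bcl11b peak did not begin with promoter-TSS, the peak shared at least 1 bp with a Scid.adh.2c2 GATA3 peak, and it shared no base with an ILC2/b6 Bcl11b peak. They made up 2068 of 11468 distal and of 17874 Scid.adh.2c2 Bcl11b peaks in all. Because Bcl11b and GATA3 occupancy chose the sites, both are given below as descriptions only. The tests concern the RNA of the genes nearest to the sites, which the choice did not use.

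The series joins ChIP-seq, which sequences the DNA bound by a factor, with RNA-seq in a pair of mouse cell lines, 32 samples in 16 groups of 2 libraries. Scid.adh.2c2 is a lymphoma-derived line with features of pro-T cells, the thymic stage at which cells commit to the T lineage. The ILC2/b6 line stands for group 2 innate lymphoid cells, tissue cells that make type 2 cytokines, and grew with 10 ng/ml of each of the cytokines IL-33, IL-7 and IL-2. In each line, Bcl11b, GATA3, Runx1 and Runx3 were mapped in unperturbed cells. The labels' protocol gives fixation with DSG and then formaldehyde, but the input libraries are titled DSG or FA, and the labels do not say which fixation each factor had. The RNA comes from cells of each line that received either a control guide RNA (sgControl) or a guide against Bcl11b (sgBcl11b), both carried with a CFP reporter, in 2 libraries per guide and line. Each line is a single line, the labels do not say whether libraries of a group are separate cultures, and p-values therefore measure only the spread between these libraries. The recovered RNA depth was 34.7 to 43.7 M reads per library. Of 9 pro-T markers, 8 stood at 1 RPKM (reads scaled by transcript length and library depth) or more in both Scid.adh.2c2 control libraries, with Dntt at a mean of 0.29 RPKM, and all 8 ILC2 markers did so in the ILC2/b6 controls. In Scid.adh.2c2, Bcl11b mRNA itself stood at 47.0 and 49.5 RPKM under the control guide and at 47.1 and 46.8 RPKM under the Bcl11b guide (log2 difference -0.04, adjusted p = 0.455), and in ILC2/b6 at 6.85 and 6.33 against 7.04 and 7.24 RPKM, so the RNA level of the targeted gene does not check the labels. With the Scid.adh.2c2 libraries centred on their medians, Bcl11b is called lower (-0.17, adjusted p = 0.00856), as it is with quantile normalization (-0.11, adjusted p = 0.0460).

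Bcl11b is a zinc finger transcription factor that T-cell precursors switch on at commitment, and ILC2 also depend on it. GATA3 is a zinc finger factor that binds GATA motifs and is required by early T cells and by ILC2. Runx1 and Runx3 are Runt-family factors that bind DNA as partners of the beta subunit Cbfb. Distal elements such as introns and intergenic enhancers carry much of the cell-type-specific binding of such factors.

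The site with the highest Bcl11b peak score (the score the authors' peak caller gave, a value of that peak only) was chr1:139703459-139703695 (mm9), 159455 bp upstream of Mir181a-1. Its Bcl11b score was 268.9, the 16th highest of the whole list, and Runx1, Runx3 and GATA3 peaks of Scid.adh.2c2 lay on it with scores of 371.2, 537.9 and 217.3. A further site lay 257993 bp upstream of the same gene. Mir181a-1 encodes miR-181a, a microRNA known in mouse thymocytes for tuning the sensitivity of T-cell receptor signalling. Its mature forms are printed because this gene lies nearest to the strongest site, with the seed (bases 2 to 8) in capitals, from RefSeq on GRCm38.p6. The arms have different seeds.
mmu-miR-181a-5p: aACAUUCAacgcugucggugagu
mmu-miR-181a-1-3p: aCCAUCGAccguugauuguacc

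The linked genes Il2ra, Nrarp and Runx3, described below, also had a Bcl11b peak at their start, and their promoters are shown for that reason. This choice was made after their values were seen. The promoter peaks were centred 86 bp upstream of the start of Il2ra, 164 bp upstream of Nrarp and 132 bp upstream of Runx3, and each overlapped an ILC2/b6 Bcl11b peak, so none is among the 2068 sites. The windows run from 250 bases before to 50 after the start and come from RefSeq on GRCm38.p6, at chr2:11642542-11642841 for Il2ra, chr2:25180508-25180807 for Nrarp and chr4:135120395-135120694 for the upstream start of Runx3, all on the plus strand. Capitals mark letters found in a search of both strands for the GATA motifs AGATAA and TGATAA, the Runx motif TGTGGT, the E boxes CAGCTG and CAGGTG, the ETS motif AGGAAG and the HMG box motif TCAAAG. No match overlapped another.
Il2ra promoter: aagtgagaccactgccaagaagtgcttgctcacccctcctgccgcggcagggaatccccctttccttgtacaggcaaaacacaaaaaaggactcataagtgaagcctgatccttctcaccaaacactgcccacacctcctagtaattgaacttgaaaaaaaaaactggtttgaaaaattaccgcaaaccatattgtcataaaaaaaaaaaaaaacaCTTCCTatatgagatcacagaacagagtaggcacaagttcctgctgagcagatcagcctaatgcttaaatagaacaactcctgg
Nrarp promoter: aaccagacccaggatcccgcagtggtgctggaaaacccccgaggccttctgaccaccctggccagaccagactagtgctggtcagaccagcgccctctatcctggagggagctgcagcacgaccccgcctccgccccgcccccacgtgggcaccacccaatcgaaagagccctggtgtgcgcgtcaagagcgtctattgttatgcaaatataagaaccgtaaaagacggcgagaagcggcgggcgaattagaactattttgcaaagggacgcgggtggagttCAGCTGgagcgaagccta
Runx3 upstream promoter: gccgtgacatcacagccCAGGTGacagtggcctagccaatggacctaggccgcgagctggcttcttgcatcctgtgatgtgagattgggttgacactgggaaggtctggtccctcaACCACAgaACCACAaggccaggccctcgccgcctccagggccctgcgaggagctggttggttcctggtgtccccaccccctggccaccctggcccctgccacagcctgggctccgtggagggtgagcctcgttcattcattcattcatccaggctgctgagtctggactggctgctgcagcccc
The Runx3 window held the Runx motif at 2 places and an E box, the Il2ra window an ETS motif and the Nrarp window an E box. Of all 32851 promoter windows of this length in the table, 16.8% held the Runx motif, 32.9% an E box, 35.4% the ETS motif, 16.0% the HMG box motif and 18.6% a GATA motif. The GATA letters were not in any of the 3 windows, and a match or its absence describes these letters only.

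Most sites carried Runx factors as well. A Scid.adh.2c2 Runx3 peak lay on 77.5% of the sites and a Runx1 peak on 65.0%, against 70.5% and 56.7% over all distal Bcl11b peaks. Of the 1076 distal Bcl11b sites found in both lines and under Scid.adh.2c2 GATA3, 868 had Runx3 and 774 had Runx1. Those shares are larger than at the present sites. Both Runx factors were present at 1315 sites (63.6%), Runx3 without Runx1 at 288 (13.9%), and neither at 436 (21.1%). These 436 sites had a median Bcl11b score of 20.9, against 29.2 for the 1632 sites with a Runx peak. The median offset of the peak centre from the Bcl11b centre was 44 bp for GATA3, 24 bp for Runx1 and 28 bp for Runx3. Only overlapping peaks enter these offsets, so the overlap itself bounds their size. Over all distal Bcl11b peaks with such an overlap the medians were 44, 26 and 29 bp. Each list pools 2 libraries, so there is 1 list per factor and line, site shares have no replicate error, and intervals (exact Clopper-Pearson, 95%) cover counting only.

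The sites differed from each other in what the ILC2/b6 line held at the same place. At 1264 sites (61.1%) no GATA3, Runx1 or Runx3 peak of ILC2/b6 overlapped. A GATA3 peak of ILC2/b6 was present at 626 sites (30.3%, interval 28.3 to 32.3), a Runx3 peak at 25.5% and a Runx1 peak at 7.59%. Runx3 and GATA3 went together there. Of the 626 sites with ILC2/b6 GATA3, 55.9% also had ILC2/b6 Runx3, against 12.3% of the 1442 sites without it. At distal Bcl11b sites found in both lines and also under Scid.adh.2c2 GATA3, 95.4% had ILC2/b6 GATA3 and 95.2% had ILC2/b6 Runx3, and 0.465% had none of the 3 factors. At the 3950 pro-T-only distal sites with Runx and without GATA3, ILC2/b6 GATA3 was found at 0.785% and ILC2/b6 Runx3 at 31.6%. These shares are set side by side with no test, since sites are not replicates. The lists begin at a score of about 15, so a site without a peak may hold weaker signal.

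**Figure D1:**
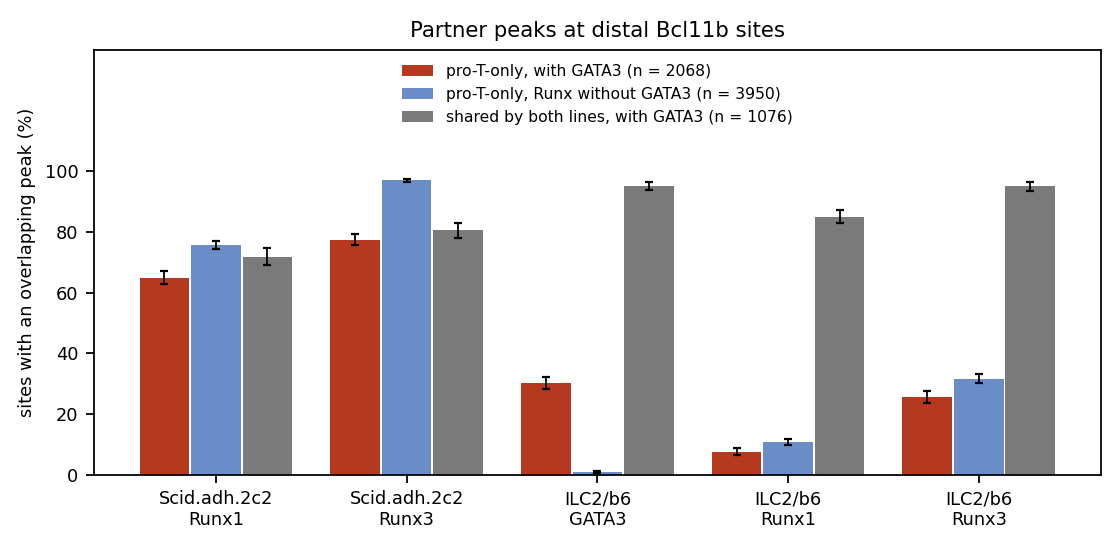
Percentage of sites (vertical axis) with an overlapping peak of each factor and line (horizontal axis), in 3 classes of distal Scid.adh.2c2 Bcl11b sites, with exact 95% binomial intervals as bars. The pro-T-only sites with GATA3 had ILC2/b6 GATA3 at 30.3% and ILC2/b6 Runx3 at 25.5%, between the other classes for GATA3 and below both for Runx3.

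GATA3 peaks at the sites were among the stronger ones. Their median score was 60.1, against 24.4 over all 35973 distal GATA3 peaks of Scid.adh.2c2, and 1711 of the 2068 ranked in the upper 50% of the list. Distal GATA3 peaks under no Bcl11b peak had a median of 23.4. The Bcl11b scores of the sites were ordinary for distal peaks, with a median of 26.3 against 26.4 over all of them. Peaks of the distal class shared by both lines with GATA3 had a GATA3 median of 70.4.

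At the edges of the choice, the smallest overlap between a site and its GATA3 peak was 2 bp (nearest to Gnb2), and the closest excluded peak lay 1 bp from a GATA3 peak. The nearest ILC2/b6 Bcl11b peak to an included site was 6 bp away (Tpst2), and the smallest overlap that excluded a peak was 1 bp (Gm14005). Such edge cases made up a small share. Under 50 bp were shared with GATA3 at 80 sites, 93 had an ILC2/b6 Bcl11b peak within 1000 bp, and 967 were covered whole by the GATA3 peak, with a median overlap of 233 bp of 237 bp.

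The sites lay far from gene starts. Intergenic positions held 48.9% and introns 46.9%, and the median distance to the nearest start was 28657 bp. The median was 15865 bp over all distal Bcl11b peaks, 19602 bp at the pro-T-only sites with Runx and without GATA3, and 18811.5 bp at shared sites with GATA3. Farther than 200000 bp from any start lay 157 sites (7.59%), against 3.85% of all distal peaks. Long terminal repeats, remains of retroviral elements, held 178 sites (8.61%), against 6.58% of all distal peaks.

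**Figure D2:**
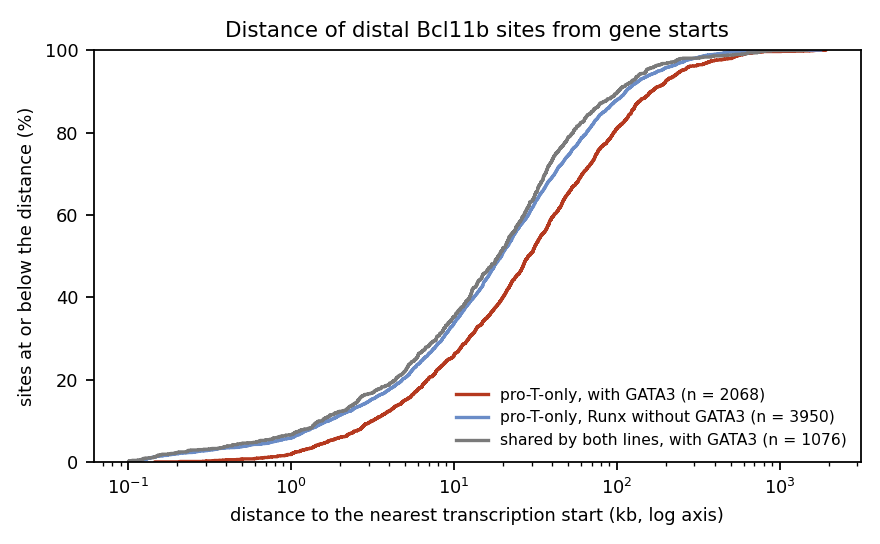
Cumulative percentage of sites (vertical axis) by distance to the nearest transcription start in kb (horizontal log axis) for the same 3 classes of sites. The curve of the pro-T-only sites with GATA3 lies to the right, with a median of 28657 bp.

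Some loci held several of these sites. Runs were formed from neighbours within the distance commonly used to stitch enhancers together, counted from the end of one to the start of the next. There were 122 runs of at least 2 sites, holding 254 of the 2068, and 9 runs of 3 or more. The run with the most sites was 4 in intron 1 of Esrrg, which encodes an orphan nuclear receptor, at chr1:189524890-189535759. Esrrg itself measured 4.78 and 5.43 RPKM in the controls and 5.02 and 5.18 RPKM with the Bcl11b guide, and the groups overlapped (log2 difference 0.00, adjusted p = 0.998). A run of 3 sites at chr19:33156077-33169745 was listed under Mir3970, and another at chr15:63101936-63117874, listed under Gm20740, began 1285040 bp downstream of the start of Myc. The nearby site at chr15:63087303-63087539, 1270.5 kb from the Myc start, had the highest GATA3 score of all the sites, 1251.1, with Runx1 and Runx3 scores of 294 and 216.9. The region far downstream of Myc is known in mouse to hold a Notch-dependent enhancer that drives Myc in T cells, and whether these sites coincide with it was not tested. Myc measured 181.3 and 180.6 RPKM in Scid.adh.2c2 controls and 129.5 and 130.1 RPKM with the Bcl11b guide, a log2 difference of -0.48 (SE 0.036, adjusted p = 3.48e-05).

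A second gene-poor stretch lay beside Bcl11b itself. The 7 sites listed under 4933406K04Rik on chromosome 12 lay 810.8 to 1418.6 kb from the Bcl11b start. The strongest Bcl11b peak of the 7, chr12:108389294-108389530 with a score of 172.8, was 852.2 kb away. The desert beyond Bcl11b on this side is known in mouse to hold a distal Bcl11b enhancer, and whether the site coincides with it was not tested. A further 6 sites nearer to Bcl11b were listed under 4930465M20Rik, and 1 lay in the 3' UTR of Bcl11b. The other genes with 6 or more sites were Mir7094-2 with 8, Gm20740 and Sall1 with 7 each, and 1700028P15Rik, 1700092K14Rik, 1700112E06Rik, Cxcr4, Akap7, Clvs1, Efna5 and Esrrg with 6 each. Mir7094-2, Sall1 and 1700028P15Rik were listed at 0 RPKM in every Scid.adh.2c2 library.

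Other strong sites lay by genes of several kinds. The site with the second highest Bcl11b score, 216.3, was 127662 bp upstream of Mef2a, which encodes a MADS-box factor, with no ILC2/b6 GATA3, Runx1 or Runx3 peak. Mef2a measured 13.7 and 15.03 RPKM in the controls and 33.2 and 31.2 RPKM with the Bcl11b guide (log2 difference 1.13, SE 0.059, adjusted p = 4.86e-06). St3gal1 encodes a sialyltransferase and had a site scored 185.7 in its 3' UTR. It measured 16.8 and 16.3 RPKM in the controls and 10.3 and 10.6 RPKM with the Bcl11b guide (log2 difference -0.64, SE 0.053, adjusted p = 5.93e-05). Both Mef2a and St3gal1 thus changed, in opposite directions and with no overlap between the groups. In an intron of Phex, a paired set of sites 1277 bp across carried no Runx peak in either line, with GATA3 scores of 992.1 and 618.2 and Bcl11b scores of 185.4 and 87.2. Phex mRNA was at 0.12 RPKM or lower in every Scid.adh.2c2 library.

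A site scored 172.1 stood 73391 bp upstream of Rag2, at chr2:101391396-101391632, with GATA3, Runx1 and Runx3 scores of 206, 105 and 100.1 and no partner peak in ILC2/b6. Rag1 and Rag2 encode the recombinase that cuts antigen receptor genes, and a distal element upstream of Rag2 is known in mouse to keep both genes active in thymocytes. Whether the site is that element was not tested. Rag2 was at 0.763 and 0.655 RPKM in the controls and 0.137 and 0.081 RPKM with the Bcl11b guide, under the minimum for testing. Its neighbour Rag1 measured 64.1 and 75.7 RPKM in the controls and 11.7 and 11.01 RPKM with the Bcl11b guide (log2 difference -2.57, SE 0.078, adjusted p = 3.48e-07).

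**Figure D3:**
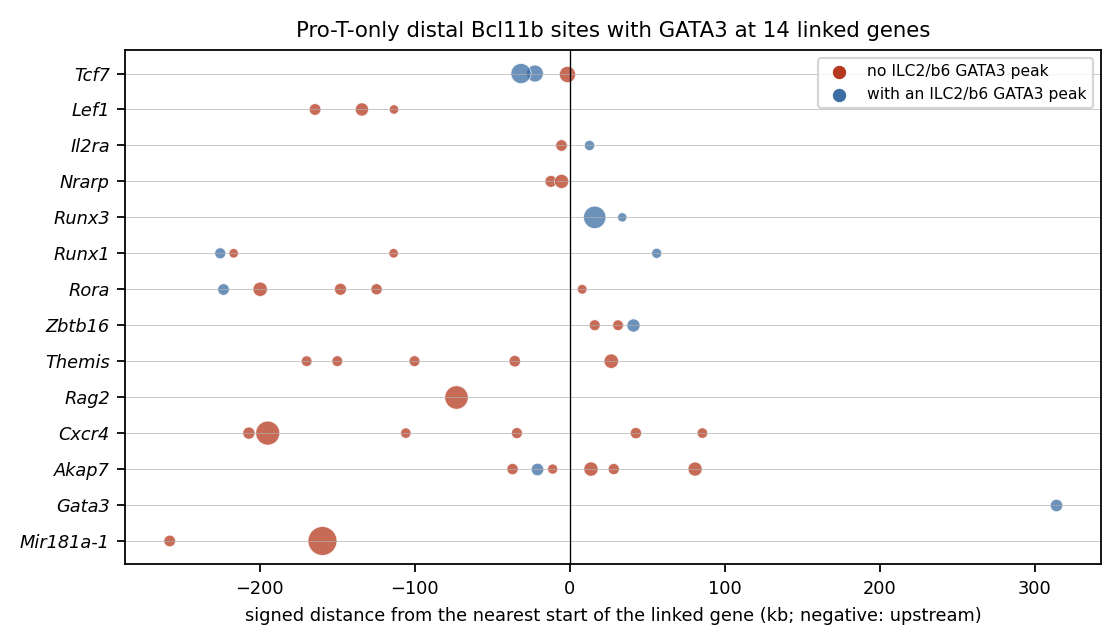
Sites at 14 linked genes (rows), by signed distance in kb from the start the peak list gives (horizontal axis, negative upstream), with circle area rising with the Bcl11b score and colour by ILC2/b6 GATA3. Cxcr4, Themis and Rag2 had no site with an ILC2/b6 GATA3 peak, whereas both Runx3 sites had one.

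The sites were linked to the nearest gene named in the peak list. This gave a gene of the RNA tables to 2024 of the 2068 sites and 1527 genes in all, 1211 with 1 site, 216 with 2 and 100 with 3 or more. A nearest gene is a label, and a site may act on another gene or on none. The levels of the linked genes differed from those of all genes. With the 2 tables scaled separately, 181 linked genes (11.9%) stood at 1 RPKM or more in both Scid.adh.2c2 controls and under 1 in both ILC2/b6 controls, against 3.44% of all genes. The reverse held for 76 (4.98%), against 5.68% of all genes. Genes linked to pro-T-only sites with Runx and no GATA3, with none of the present sites, gave 8.34% and 5.58%. Those linked to distal sites shared by both lines, also with none of the present sites, gave 3.93% and 6.597%. These differences were not tested. Among genes with 3 or more sites the first share was 24% and the second 1%.

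The linked genes were then compared between Scid.adh.2c2 cells with the Bcl11b guide and those with the control guide. The fit was limma on log2(RPKM + 0.5) over all 10221 genes at 1 RPKM or more in at least 2 libraries, and a gene is called at an adjusted p (Benjamini-Hochberg, over all genes tested) under 0.05. Of 1527 linked genes, 898 could be tested. With the Bcl11b guide 383 rose (42.7%, against 35.1% of all tested genes) and 267 fell (29.7%, against 22.7%), with a median log2 difference of 0.07 against 0.05 over all tested genes. With the libraries centred on their medians, which shifts every difference by -0.13, 296 rose (33.0%) and 362 fell (40.3%), and over all tested genes 24.1% rose and 38.5% fell. In bulk RNA, fewer cells of a type and less RNA per cell cannot be told apart.

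Larger changes were counted next. At 2-fold or more 102 linked genes rose (11.4%, against 6.75% of all tested genes) and 60 fell (6.68%, against 1.68%). Genes linked to pro-T-only sites with Runx and no GATA3, with none of the present sites, gave 11.6% and 4.84%. Genes linked to distal sites shared by both lines, also with none of the present sites, gave 10.0% and 1.18%. Genes with no Bcl11b peak gave 8.24% and 1.11%. These shares are given with no test of their differences. Of the 898 tested genes linked to the present sites, 804 also had other Scid.adh.2c2 Bcl11b peaks and were kept. With median centring the present sites gave 89 higher (9.91%, against 5.70% of all tested genes) and 74 lower (8.24%, against 2.10%). With quantile normalization they gave 78 higher (8.69%, against 5.08%) and 79 lower (8.80%, against 2.61%). The filter fixed some directions, since 44 linked genes (4.90%, against 3.18% of all tested genes) reached the minimum under the Bcl11b guide only and 21 (2.34%, against 0.822%) under the control guide only. Of the 102 linked genes that rose by 2-fold or more, 36 were of the first kind, and of the 60 that fell, 13 were of the second. Over all tested genes these were 236 of 690 and 36 of 172, which are similar shares. Linked genes whose nearest site was under 10000 bp from the start gave 15.2% higher and 8.05% lower at 2-fold or more, those at 10000 to 50000 bp 9.28% and 7.22%, and those at 50000 to 200000 bp 9.83% and 3.47%. Of 94 tested genes with these sites and no other Bcl11b peak, 21.3% rose and 9.57% fell by 2-fold or more.

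**Figure D4:**
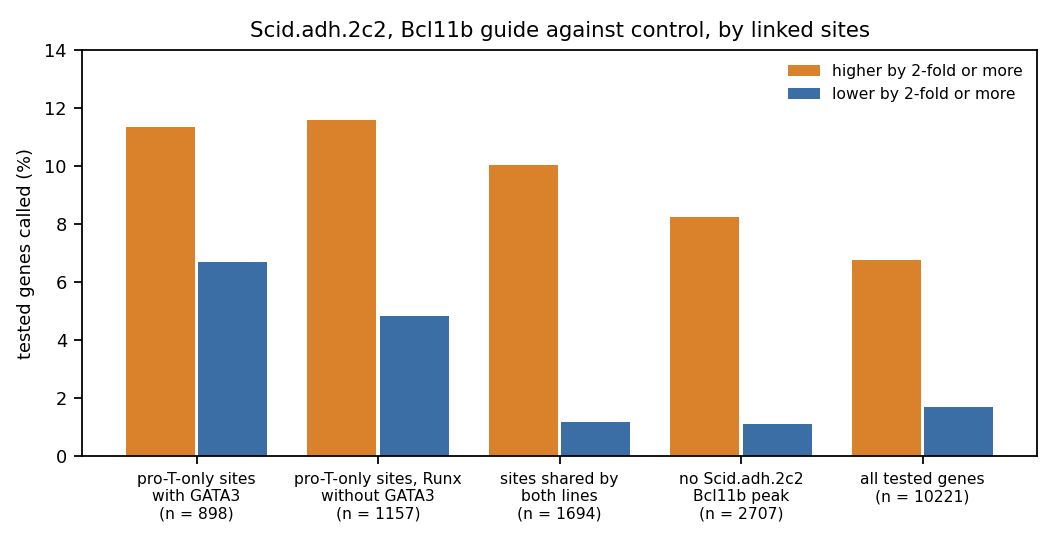
Percentage of tested genes (vertical axis) called higher or lower by 2-fold or more with the Bcl11b guide in Scid.adh.2c2, by the class of Bcl11b site linked to the gene (horizontal axis, number of tested genes below). Genes linked to pro-T-only sites with GATA3 stand at 11.4% higher and 6.68% lower, and all tested genes at 6.75% and 1.68%. Genes linked to such sites were left out of the Runx without GATA3 and shared classes.

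The 8 linked genes with the largest rises rose by 3.09 to 4.23 on the log2 scale. Of these, Oasl2, Csf2, Sspn and Pik3c2g reached the minimum under the Bcl11b guide only and so could be called only as higher. Oasl2, an interferon-inducible gene of the oligoadenylate synthetase family with a site 4341 bp upstream, measured 0.746 and 0.691 RPKM in the controls and 22.1 and 22.6 RPKM with the Bcl11b guide (log2 difference 4.23, SE 0.075, adjusted p = 4.11e-08). Csf2, which encodes the cytokine GM-CSF, measured 0.824 and 0.701 RPKM in the controls and 14.6 and 16.0 RPKM with the Bcl11b guide (log2 difference 3.65, SE 0.091, adjusted p = 1.71e-07). Ms4a4b, a four-span membrane protein gene of T cells with a site in its intron, went from 5.14 and 4.68 RPKM to 72.8 and 73.3 RPKM (log2 difference 3.77, SE 0.055, adjusted p = 2.64e-08). By the rule that chose them, the groups did not overlap in any of the 8 genes. The other large rises were Sspn (3.52), Aim1l (3.31), Gbp10 (3.30), Pik3c2g (3.10) and Zbp1 (3.09) on the log2 scale, with adjusted p from 3.83e-08 for Gbp10 to 3.80e-07 for Zbp1. Gbp10 encodes an interferon-inducible GTPase and Zbp1 a sensor of Z-form nucleic acid, and Gbp10 and Ms4a4b have close family copies, so reads may be shared with them.

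Among the genes that fell most, Fbp1, which encodes the gluconeogenic enzyme fructose bisphosphatase, had a site 2683 bp inside intron 1. It measured 33.6 and 37.1 RPKM in the controls and 4.60 and 5.11 RPKM with the Bcl11b guide (log2 difference -2.74, SE 0.073, adjusted p = 2.08e-07). Stc1, the gene of the secreted glycoprotein stanniocalcin, had 3 sites and went from 8.67 and 7.84 RPKM to 0.885 and 0.825 RPKM (log2 difference -2.69, SE 0.091, adjusted p = 5.69e-07). It reached the minimum under the control guide only and so could be called only as lower. Ndrg1, a stress-responsive gene, measured 116.9 and 45.9 RPKM in the controls and 8.29 and 7.59 RPKM with the Bcl11b guide. Its controls differed widely, and its log2 difference of -3.13 (SE 0.36, adjusted p = 3.04e-04) became -2.46 without control replicate 1 and -3.80 without control replicate 2. The other large falls were Arsi (-2.53), D430041D05Rik (-2.29), Mtus2 (-2.29), Tnfrsf8 (-2.21), which encodes CD30, and Arhgef10l (-2.20), on the log2 scale, with adjusted p from 5.84e-08 for Arsi to 4.36e-06 for D430041D05Rik.

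**Figure D5:**
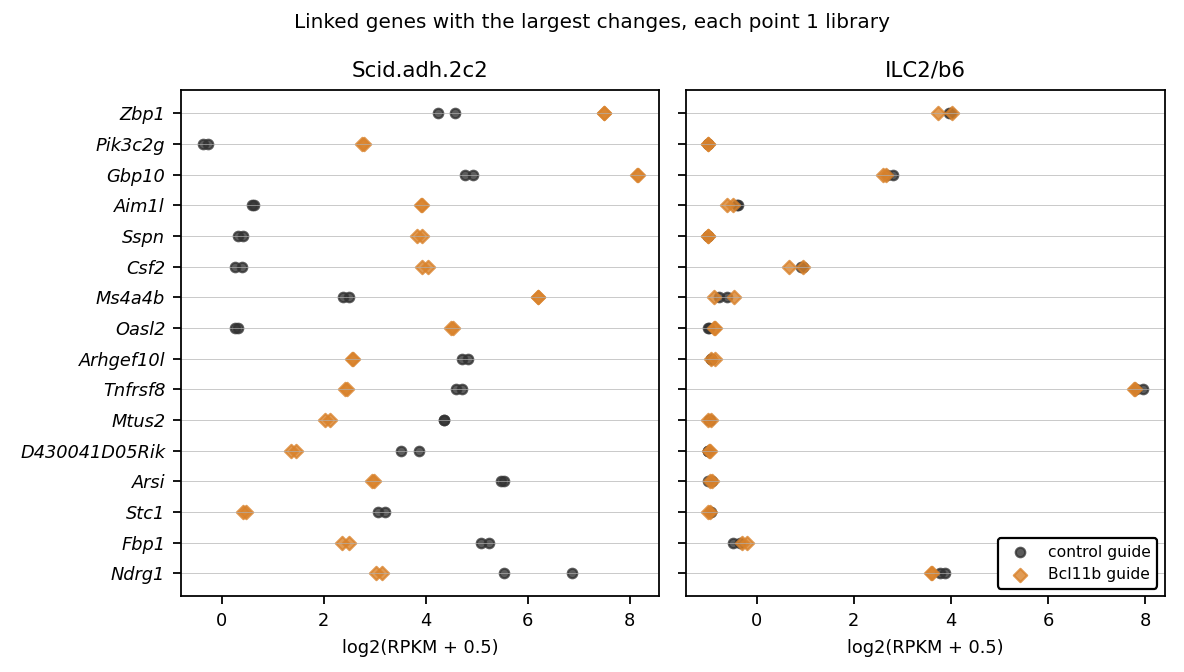
Level of the 8 linked genes with the largest rises and the 8 with the largest falls, as log2(RPKM + 0.5) (horizontal axis) in each library of both lines, circles for the control guide and diamonds for the Bcl11b guide. The groups are apart in Scid.adh.2c2 for all 16 genes, by the rule that chose them, and most ILC2/b6 points lie together.

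Genes of T-lineage identity were often linked to these sites. Of 34 such genes, 15 had at least 1 site (44.1%, against 6.24% of all measured genes), 27 sites in all. Of the 12 that could be tested 8 rose, 3 fell and 1 was not called, with a median log2 difference of 0.27. With median centring 6 rose and 4 fell. Of the 12 tested genes of this list without such a site, 3 rose and 5 fell without centring, and 2 rose and 8 fell with median centring. The falls among the linked genes were in Lef1, Tcf7 and Thy1. Tcf7 encodes TCF-1, an HMG box factor that starts the T-cell programme. It had 3 sites, at 1432, 22453 and 31423 bp upstream, the outer 2 with ILC2/b6 GATA3 peaks although Tcf7 was at 0.209 and 0.095 RPKM in the ILC2/b6 controls. It measured 389.1 and 389.9 RPKM in the Scid.adh.2c2 controls and 216.0 and 218.1 RPKM with the Bcl11b guide (log2 difference -0.84, SE 0.039, adjusted p = 2.74e-06). Lef1, the related factor, had 3 sites 113323 to 164237 bp upstream, none with ILC2/b6 GATA3. It measured 34.9 and 41.1 RPKM in the controls and 8.27 and 8.20 RPKM with the Bcl11b guide (log2 difference -2.13, SE 0.077, adjusted p = 8.07e-07).

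The gene not called on this list was Bcl11b, which is called lower under the other scalings, as given above. The largest rise was in Cd7. It encodes a surface protein of early T cells, had a site 384 bp inside its intron 1 and went from 1.504 and 2.62 RPKM to 19.8 and 21.1 RPKM (log2 difference 3.07, SE 0.18, adjusted p = 1.03e-05). Cd2, an adhesion receptor, went from 13.5 and 14.49 RPKM to 35.3 and 35.9 RPKM (log2 difference 1.32, adjusted p = 1.00e-06). The costimulatory receptor gene Cd28 went from 11.4 and 10.9 RPKM to 28.7 and 27.4 RPKM (log2 difference 1.30, adjusted p = 1.21e-06). Themis, a T-cell receptor signalling gene with 5 sites, all with Runx and none with ILC2/b6 GATA3, went from 14.53 and 14.1 RPKM to 28.4 and 27.03 RPKM (log2 difference 0.93, SE 0.049, adjusted p = 5.06e-06). Ets1 rose by 0.33 (adjusted p = 8.58e-04). Cd247 and Gata3 were called at 0.16 and 0.22 (adjusted p = 0.00856 and 0.00506), and neither call held with median centring (adjusted p = 0.638 and 0.142). The Gata3 call was also lost without Bcl11b-guide replicate 2 (adjusted p = 0.0671), and the Cd247 call without Bcl11b-guide replicate 1 or 2 (adjusted p = 0.0656 and 0.115).

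The list of Notch receptors and response genes had 3 linked members of 12. Il2ra and Nrarp could be tested and both fell. Il2ra encodes CD25, the high-affinity chain for IL-2 and a marker of pro-T cells, and had sites 5540 bp upstream and 12646 bp inside intron 1. It measured 150.3 and 168.4 RPKM in the controls and 44.3 and 42.8 RPKM with the Bcl11b guide (log2 difference -1.86, SE 0.058, adjusted p = 3.71e-07). Nrarp, a feedback inhibitor of Notch that Notch itself induces, had sites 5224 and 12119 bp upstream, with GATA3 and no Runx peak. It measured 151.7 and 159.3 RPKM in the controls and 48.6 and 45.2 RPKM with the Bcl11b guide (log2 difference -1.72, SE 0.048, adjusted p = 2.58e-07). Hey1 was under the minimum in every library. Of the 8 tested genes of this list without such a site, 1 rose and 7 fell, most of the list falling with or without a site.

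Partner and lymphoid transcription factor genes had the largest linked share of the 13 lists, 15 of 26 (57.7%, 28 sites). Of 14 tested, 9 rose, 3 fell and 2 were not called, with a median log2 difference of 0.30. With median centring 7 rose and 5 fell, since Gata3 and Zfpm1, a GATA cofactor gene, lost their calls (adjusted p = 0.142 and 0.0657) and Runx1 and Gfi1 were called lower. Of the 7 tested genes of this list without such a site, 4 rose and 2 fell, both with and without median centring. Runx3 had sites 16139 and 33893 bp inside the gene, the first scored 156.4 for Bcl11b and 266.9 for GATA3, and both with ILC2/b6 GATA3. It measured 3.07 and 3.28 RPKM in the controls and 18.0 and 18.2 RPKM with the Bcl11b guide (log2 difference 2.34, SE 0.066, adjusted p = 2.58e-07). Ikzf3, which encodes the zinc finger factor Aiolos, went from 21.3 and 26.97 RPKM to 57.6 and 58.5 RPKM (log2 difference 1.26, SE 0.097, adjusted p = 3.94e-05). Runx1 had 4 sites and stood at 19.4 and 21.3 RPKM in the controls and 19.8 and 19.5 RPKM with the Bcl11b guide (log2 difference -0.05, adjusted p = 0.487). Gfi1 was also not called (-0.03, adjusted p = 0.593). Their values with median centring were -0.18 and -0.17 (adjusted p = 0.0132 and 0.0362). Tcf12, an E protein gene, fell by 0.50 on the log2 scale (adjusted p = 3.38e-04).

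Among cytokine receptors and signal regulators, 10 of 33 were linked, and of 9 tested 3 rose, 4 fell and 2 were not called (median -0.05). Of the 15 tested genes of this list without such a site, 12 rose and 3 fell. The related signal inhibitors Socs2 and Socs3 moved apart. Socs2 went from 0.887 and 1.12 RPKM to 4.52 and 4.16 RPKM (log2 difference 1.69, adjusted p = 1.51e-05), and Socs3 from 12.4 and 13.7 RPKM to 3.43 and 3.94 RPKM (log2 difference -1.69, adjusted p = 4.56e-06). The site of each lay under GATA3 in both lines and under no Runx peak of Scid.adh.2c2.

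Lists of other lymphoid fates followed. Of 34 genes of NK cells and innate effectors 5 were linked (14.7%), and both tested genes rose. Of the 16 tested genes of this list without such a site, 13 rose and 1 fell. Prf1, the perforin gene, went from 0.089 and 0.014 RPKM to 2.73 and 2.50 RPKM (log2 difference 2.50, adjusted p = 2.74e-06). It reached the minimum under the Bcl11b guide only and so could be called only as higher, which also holds for Csf2 and Lif of the ILC2 list. Tox, a factor of NK and innate lymphoid development, went from 12.8 and 12.9 RPKM to 28.3 and 29.1 RPKM (log2 difference 1.13, adjusted p = 1.38e-06). Of 22 ILC2 genes 6 were linked (27.3%), and of 5 tested 3 rose (Csf2, Lif and Rora), Il7r fell and Gfi1 was not called. Of the 8 tested genes of this list without such a site, 6 rose and 2 fell. Rora, a nuclear receptor gene that ILC2 require, had 5 sites and measured 6.37 and 6.83 RPKM in the controls and 20.8 and 20.1 RPKM with the Bcl11b guide (log2 difference 1.56, SE 0.060, adjusted p = 1.08e-06). Il7r, the IL-7 receptor gene, went from 27.3 and 29.7 RPKM to 14.7 and 14.99 RPKM (log2 difference -0.92, adjusted p = 1.01e-05). Summed RPKM of 8 ILC2 markers was 64.2 to 65.6 in the Scid.adh.2c2 controls and 94.0 to 97.2 with the Bcl11b guide, with Gata3 and Rora the linked tested ones. Of 14 ILC3 and type 17 genes 3 were linked and none reached the minimum, and of 21 progenitor and myeloid genes none was linked. The summed level of 6 myeloid markers was 1.79 to 1.99 RPKM in the controls and 6.26 to 6.91 RPKM with the Bcl11b guide. That of 10 B-lineage markers was 1.90 to 2.05 RPKM and then 5.35 to 5.59 RPKM, with Cebpa and Pax5 at 0 in all 4 libraries. The part of other cells in the rises was not tested.

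Trafficking and adhesion genes were linked in 7 of 22 cases, and of 6 tested 3 rose, 1 fell and 2 were not called. Of the 9 tested genes of this list without such a site, 8 rose and 1 fell. Cxcr4, the chemokine receptor gene that helps hold early thymocyte precursors in place, had 6 sites, the strongest (181.4) 194742 bp upstream. It measured 98.6 and 103.6 RPKM in the controls and 77.5 and 73.7 RPKM with the Bcl11b guide (log2 difference -0.42, SE 0.044, adjusted p = 1.99e-04). Klf2, Itga4 and Itgb1 rose by 2.29, 1.42 and 0.93 on the log2 scale (adjusted p = 3.25e-05, 7.50e-07 and 1.50e-06). Klf2 is a factor known to promote exit of T cells from tissue, and the others encode integrin chains that pair. Klf2 reached the minimum under the Bcl11b guide only and so could be called only as higher. Of checkpoint and costimulatory genes 2 of 19 were linked, and Cd200, the one tested, fell by 1.53 on the log2 scale (adjusted p = 4.35e-05). It reached the minimum under the control guide only and so could be called only as lower. All 7 tested genes of this list without such a site rose. Akap7, an anchoring protein gene with 6 sites, went from 18.2 and 20.1 RPKM to 9.37 and 10.2 RPKM (log2 difference -0.93, adjusted p = 3.33e-05).

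In ILC2/b6, whose Bcl11b list lacks these sites, the same genes were then compared in the same way. Of 749 linked genes tested there, 75 rose (10.0%, against 8.32% of all tested genes) and 59 fell (7.88%, against 6.21%). At 2-fold or more 2 rose and 0 fell, against 0.485% and 0.114% of all tested genes. At adjusted p under 0.05, both shares stood above those of all tested genes, as in Scid.adh.2c2 (42.7% against 35.1% and 29.7% against 22.7%). These differences were not tested. The ILC2/b6 counts rest on the scaling, the libraries and the filter used. With median centring 60 rose (8.01%, against 6.17% of all tested genes) and 80 fell (10.7%, against 8.64%), so falls then outnumbered rises. Without Bcl11b-guide replicate 2, 40 rose (5.34%, against 4.41% of all tested genes) and 35 fell (4.67%, against 3.26%), and without Bcl11b-guide replicate 1, 38 fell (5.07%, against 3.51%). Without control replicate 2, 102 rose (13.6%, against 10.8%) and 77 fell (10.3%, against 9.12%). With no filter on low values 36 rose (2.998%, against 2.28%) and 26 fell (2.16%, against 1.40%). Il2ra measured 914.9 and 907.2 RPKM in the ILC2/b6 controls and 947.2 and 924.8 RPKM with the Bcl11b guide (log2 difference 0.04, adjusted p = 0.505). Runx3 measured 46.5 and 42.9 RPKM in the controls and 43.7 and 43.7 RPKM with the Bcl11b guide (log2 difference -0.03, adjusted p = 0.694).

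The difference between the lines was tested as an interaction over the 8 libraries. Of 959 linked genes tested, 597 were called, against 45.1% of all tested genes. Of these, 262 had a response that was higher in ILC2/b6 than in Scid.adh.2c2 (27.3%, against 18% of all tested genes) and 335 a lower one (34.9%, against 27.1%). Of the 959, 271 reached the minimum in 1 line only, and for such genes the difference restates the response of that line where the other is at 0, as for Sspn and Pik3c2g, both at 0 RPKM in every ILC2/b6 library. Of the 688 that reached it in each line, 412 were called (59.9%, against 45.3% of such genes), 164 with a higher response in ILC2/b6 (23.8%, against 17.4%) and 248 with a lower one (36.0%, against 27.9%). The difference was 1.90 for Il2ra (SE 0.075, adjusted p = 5.61e-07), 1.91 for Nrarp (SE 0.074, adjusted p = 5.10e-07) and 2.10 for Lef1 (SE 0.17, adjusted p = 2.69e-05), each lower with the Bcl11b guide in Scid.adh.2c2. It was -2.37 for Runx3 (SE 0.070, adjusted p = 1.32e-07) and -3.77 for Csf2 (SE 0.15, adjusted p = 5.26e-07), each higher with the Bcl11b guide in Scid.adh.2c2. The labels give no measure of how much Bcl11b protein each line had lost, and its part in the difference was not tested.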

How the data were processed

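Per the file headers, the authors deposited 8 HOMER peak lists (mm9), each made from 2 libraries together, with a peak score per interval and the nearest gene. The authors also deposited RPKM values for 24475 genes, 1 table per line, whose line is known from the table's name. The submitters' processing notes name Bowtie 1.1.1, HOMER, STAR 2.4.0, RSEM 1.2.25, edgeR 3.6.8 and Trimmomatic, and the builds mm9 and NCBIM37, without roles. The low RPKM values are whole multiples of 1 read (all values checked, within 0.1 read), which gave the depth. At that depth 1 read on a 2 kb transcript is 0.0114 to 0.0144 RPKM. No strand setting of the counting is stated in the labels, so overlapping antisense genes cannot be told apart. The tables differ in transcript model for 1526 genes, so levels were tested within a table, and the line difference compares the responses measured within each table.

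Overlap was at least 1 bp. Sites were linked to RNA by gene symbol (1917 sites) or through the RefSeq table (107), and 44 stayed unlinked. RNA was fitted with limma 3.58.1 (trend, R 4.3.3) on log2(RPKM + 0.5) for genes at 1 RPKM or more in at least 2 libraries, with Benjamini-Hochberg adjustment over all genes tested. Fold changes on this scale understate those of low genes. Genes named are those with the most sites (10), the largest rises and falls among called genes whose groups did not overlap (8 each), up to 4 per list, and those at the 5 strongest sites and the 3 runs with the most sites (ties by summed score). Others are named for their list or their place by a site and were chosen after their values were seen. The sites and the gene lists were chosen with earlier results of these data known. Site sequences are not printed because no genome of this build was used here. Input libraries were not used here, and some genes that the naming rule picks are not reported here.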

Additional observations from a re-analysis of the deposited data

Results flagged for a closer look

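The response to the Bcl11b guide differed between the lines in the interaction test (limma, adjusted p under 0.05) for 22 named genes that could be tested in both lines. Each value is the log2 response in ILC2/b6 minus that in Scid.adh.2c2. Values were above 0 where the response to the Bcl11b guide was lower in Scid.adh.2c2 than in ILC2/b6, whatever the levels. They were 2.90 for Ndrg1, 2.11 for Tnfrsf8, 2.10 for Lef1, 1.91 for Nrarp, 1.90 for Il2ra, 1.64 for Socs3, 0.86 for Il7r, 0.74 for Cxcr4 and 0.55 for St3gal1. Values below 0 were -3.77 for Csf2, -3.42 for Gbp10, -3.19 for Zbp1, -2.37 for Runx3, -2.26 for Klf2, -2.11 for Prf1, -2.04 for Lif, -1.77 for Rora, -1.58 for Ikzf3, -1.58 for Socs2, -1.54 for Itga4, -1.24 for Mef2a and -0.36 for Itgb1. The genes with the largest values were partly named for their change in Scid.adh.2c2, so the size of their difference is not independent of that choice. Cxcr4 fell in Scid.adh.2c2 (-0.42) and rose in ILC2/b6 (0.33, adjusted p = 0.0410), although the latter call was lost with no filter on low values, with median centring, with quantile normalization and without any 1 of the 4 ILC2/b6 libraries. Ikzf3 rose in Scid.adh.2c2 (1.26) and fell in ILC2/b6 (-0.32, adjusted p = 0.00647), although the latter call was lost with no filter on low values (adjusted p = 0.0504) and in the joint fit of 8 libraries (adjusted p = 0.0543). No group had enough libraries to look for a sample far from the others.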

How the results depend on the processing

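Requiring peaks at or above the median score of their own list for both Bcl11b and GATA3 left 824 sites, with Scid.adh.2c2 Runx1 at 85.1%, Runx3 at 88.0%, ILC2/b6 Runx1 at 6.31%, introns at 44.7%, a median distance of 32788.5 bp, and 165 linked genes higher and 128 lower in Scid.adh.2c2. Requiring the overlapping peak to reach the median score of its list gave 40.9% (Scid.adh.2c2 Runx1), 51.6% (Runx3), 17.8% (ILC2/b6 GATA3), 2.42% (ILC2/b6 Runx1) and 10.5% (ILC2/b6 Runx3). An overlap of at least 50% of the Bcl11b peak gave 74.6% for Scid.adh.2c2 Runx3 and 26.9% for ILC2/b6 GATA3. Sites at least 2500 bp from a start had a median distance of 32959 bp. These criteria admit fewer sites or peaks by construction. With at least 2 sites per gene, 70 genes were higher and 65 lower in Scid.adh.2c2, and 7 and 6 in ILC2/b6. With no filter on low values, 36 were higher and 26 lower in ILC2/b6, and the cause was not tested. Leaving out each library in turn gave 299 to 425 higher and 207 to 306 lower in Scid.adh.2c2, 40 to 102 and 35 to 77 in ILC2/b6, and 510 to 592 in the line difference. A lone library left in a group is assumed to vary like the others. The replicate block gave 378 higher and 271 lower in Scid.adh.2c2, 103 and 81 in ILC2/b6, and 566 in the line difference. Deviations of same-numbered libraries from their group means correlated at 0.0373 in Scid.adh.2c2 and 0.106 in ILC2/b6, so the numbers do not establish a pairing. Esrrg turned to -0.19 with quantile normalization (adjusted p = 0.0430), and the cause was not tested. In Scid.adh.2c2, 679 of the other values of named genes under an alternative kept their direction and call or stayed uncalled in either direction. A further 16 gained a call and 8 lost one. In ILC2/b6 these were 450, 13 and 32, and in the line difference 939, 14 and 13. The count of line differences over genes that reach the minimum in each line was also added after seeing the data. The alternatives for single genes in ILC2/b6 and in the line difference, and for the counts at 2-fold or more, were chosen after seeing the data. The counts at 2-fold or more were 102 to 105 higher and 54 to 63 lower without each library. The counts of called genes under these alternatives are given here without the shares of all tested genes. They show how far the counts move, and do not compare the linked genes with all genes. The read depth of the peak lists is not given in the sources, so weak binding could not be told from none.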
